A study of Mus musculus with 8 samples.

Results

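Genes for subunits of the oxidative phosphorylation complexes, encoded in the nucleus and in mitochondria, were taken as all rows of the count table whose symbols begin with the standard roots for complexes I, III, IV and V (mt-Nd, mt-Co, mt-Cytb and mt-Atp for the mitochondrial genes, and Nduf with a subunit letter, Uqcr, Cox4 to Cox8 and Atp5 for the nuclear genes). This gave 101 of the 24259 symbols, of which 13 were mitochondrial and 88 nuclear. Oxidative phosphorylation transfers electrons from NADH and succinate to oxygen through the respiratory chain in the inner mitochondrial membrane, and the proton gradient this builds drives ATP synthase. Complex I (NADH dehydrogenase), complex III (cytochrome bc1), complex IV (cytochrome c oxidase) and complex V (ATP synthase) are each assembled from subunits of both genomes: a few hydrophobic core subunits are encoded by mitochondrial DNA and translated inside the organelle, and the others are encoded in the nucleus and imported. B cells that enter a germinal center divide rapidly and are known to depend on this pathway for energy.

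The RNA came from lymph node B cells sorted as NP+IgDlowB220+, which bind the immunizing hapten but have not yet formed a germinal center, at day 3 after immunization with NP-OVA in LPS and alum. The recipients were SAP-deficient (Sap-/-, CD45.1) mice, whose own T cells cannot sustain germinal centers, and help came from transferred OT-II T cells on the C57BL/6 background. In the HET group these T cells were CD4-Cre x Bcl6fl/+, so that 1 Bcl6 allele was deleted in cells expressing Cre from the Cd4 promoter, and in the WT group they were CD4-Cre. Each group had 4 libraries of about 200 cells, which the methods describe as repeats from 1 pool of recipients. Group and pool therefore cannot be told apart, and the p-values below measure the spread between repeats, which is technical. The deletion was carried by the helper T cells, which the paper sequenced separately, while the libraries used here are of B cells. No targeted gene could therefore be read in them to check the labels. Library totals ranged from 6652386 to 12559189 counts, at which 3 counts equal 0.239 to 0.451 CPM (counts scaled to 1000000 after TMM normalization). All 8 B cell markers examined were detected, with a summed level of 9852 to 11129 CPM in HET and 11546 to 12423 CPM in WT, whereas the 9 T cell markers summed to 77.1 to 391.9 CPM and the T helper marker Cd4 did not exceed 0.756 CPM in any library. In bulk RNA of this kind, fewer cells with a transcript and less of it per cell cannot be told apart.

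The question of this comparison was whether B cells that received help from Bcl6-haploinsufficient T cells carried different amounts of respiratory chain transcripts, and whether both genomes contributed alike. The 88 nuclear genes together took 1.38%, 1.49%, 1.50% and 1.49% of all counts in the HET libraries (replicates 1 to 4) and 1.38%, 1.39%, 1.25% and 1.30% in the WT libraries. Their mean share was 1.47% ± 0.0549 among HET and 1.33% ± 0.0673 among WT libraries (SD, n = 4 each), a share 10.2% larger in HET, and the groups overlapped through HET replicate 1. The 13 mitochondrial genes took 1.80%, 2.08%, 1.93% and 1.58% in HET and 1.98%, 1.98%, 2.02% and 1.67% in WT. Their means, 1.85% ± 0.209 (SD, n = 4) and 1.91% ± 0.161 (SD, n = 4), differed by less than the spread within either group. Replicate 4 was the lowest library of each group for the mitochondrial genes. The exact (Clopper-Pearson) 95% intervals of these shares, which cover counting error only, were at most 0.0209 percentage points wide. They were thus much narrower than the range within each group. They were not narrower than the differences between close libraries, such as HET replicates 2 and 4 in the nuclear share (1.49% each).

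**Figure D1:**
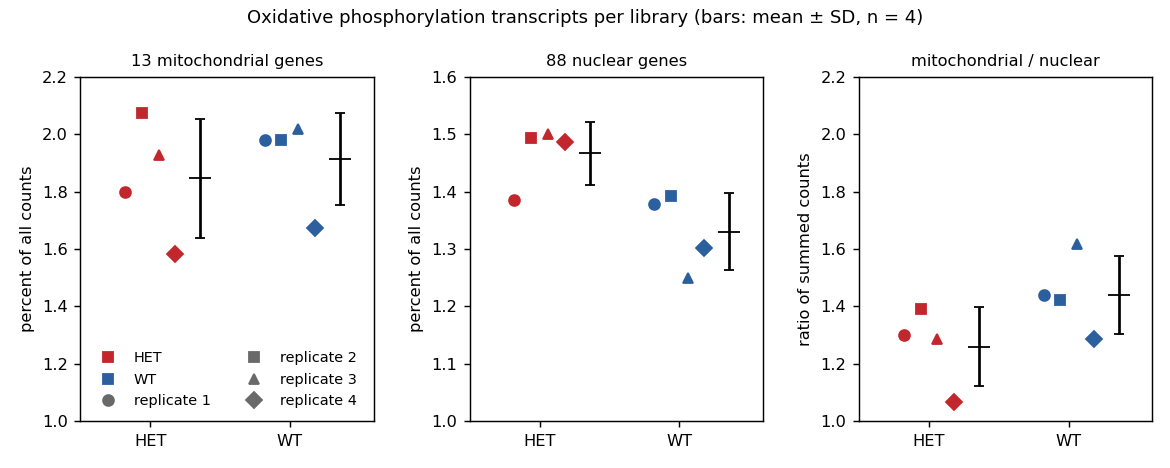
Share of all counts taken by the 13 mitochondrial genes (left) and the 88 nuclear genes (middle), in percent, and the ratio of the summed counts (right), for each HET and WT library; symbols mark the replicate number, and black bars the mean ± SD of 4 libraries. Axes start at 1. The nuclear share averaged 1.47% in HET and 1.33% in WT, while the mitochondrial share averaged 1.85% and 1.91%, and all 3 measures overlapped between the groups.

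The ratio of mitochondrial to nuclear counts therefore leaned the other way from the nuclear share. It was 1.30, 1.39, 1.28 and 1.06 in the HET libraries and 1.44, 1.42, 1.62 and 1.29 in the WT libraries. The mean ratio was 1.26 ± 0.138 among HET and 1.44 ± 0.136 among WT libraries (SD, n = 4 each), a difference of -0.20 on the log2 scale. HET replicates 1 and 2 lay above the lowest WT library, so the groups were not separate. Without HET replicate 4, the library with the lowest ratio, the difference was -0.12, without WT replicate 3, the library with the highest, it was -0.14, and without WT replicate 4 it was -0.25. Since the ratio is a sum over the genes under study, it is given as a description without a p-value. The share of the row CT010467.1, which took more counts than all 101 genes together, was 7.83% ± 1.41 among HET and 7.20% ± 0.430 among WT libraries (SD, n = 4 each) and was highest in the replicate 4 libraries of both groups, and its part in the low mitochondrial share of those libraries was not tested.

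The same direction appeared in the mean ratio of each complex. For complex I, 7 mitochondrial genes (mt-Nd1 to mt-Nd6 and mt-Nd4l) gave 1.29 to 1.78 counts per count of its nuclear genes in HET and 1.54 to 2.04 in WT. For complex III, whose single mitochondrial gene mt-Cytb encodes the cytochrome b that carries electrons across the membrane, the ratio was 2.59 to 3.11 in HET and 2.81 to 3.56 in WT. For complex IV, where mt-Co1 to mt-Co3 encode the catalytic core, it was 1.72 to 2.17 in HET and 2.08 to 2.67 in WT. This ratio is nearly that of mt-Co1 alone, with 507832 counts over all libraries against 1605 for mt-Co2 and 1759 for mt-Co3. For complex V it was only 0.00487 to 0.00753 in HET and 0.00527 to 0.00703 in WT, resting on few mt-Atp6 and mt-Atp8 counts. The low counts of mt-Co2, mt-Co3 and mt-Atp6, which have copies on chromosome 1, are described below. The groups overlapped in all of these ratios. On the nuclear side, the complex I genes took 0.441% ± 0.0134 of counts among HET and 0.40% ± 0.0215 among WT libraries (SD, n = 4 each) and were the only complex whose 4 HET libraries all lay above the 4 WT libraries (at least 0.423% against at most 0.421%). The nuclear complex V genes, the most abundant group, took 0.520% ± 0.0272 among HET and 0.464% ± 0.0175 among WT libraries (SD, n = 4 each).

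The 13 mitochondrial genes are transcribed as long polycistronic precursors from the same circular genome, and yet their counts were very unequal. On a scale of CPM per kb of transcript, mt-Co1 averaged 4596, mt-Cytb 4053 and mt-Nd1 3768 over the 8 libraries. In CPM, mt-Co1, the catalytic subunit of cytochrome c oxidase, stood at 6867, 7596, 7424 and 6147 in the HET libraries and at 7381, 7420, 7486 and 6484 in the WT libraries. These 3 genes held 80.6% to 82.6% of all mitochondrial mRNA counts in every library. Next in order were mt-Nd5 (992 CPM per kb), mt-Nd4 (636), mt-Nd6 (590) and mt-Nd2 (331), all subunits of the proton-pumping arm of complex I. The ranges of mt-Nd4 (518 to 738) and mt-Nd6 (425 to 737) overlapped across libraries, as did those of mt-Cytb (3590 to 4422) and mt-Nd1 (3142 to 4413), so their order is not settled. The 6 other genes lay far lower: mt-Nd3 at 93.8, mt-Atp6 at 39.6, mt-Co2 at 32.4, mt-Co3 at 31.0, mt-Nd4l at 12.3 and mt-Atp8 at 11.7 CPM per kb. Thus mt-Co2 and mt-Co3, which form the cytochrome c oxidase core with mt-Co1 and are made from the same precursor, were listed far below it.

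**Figure D2:**
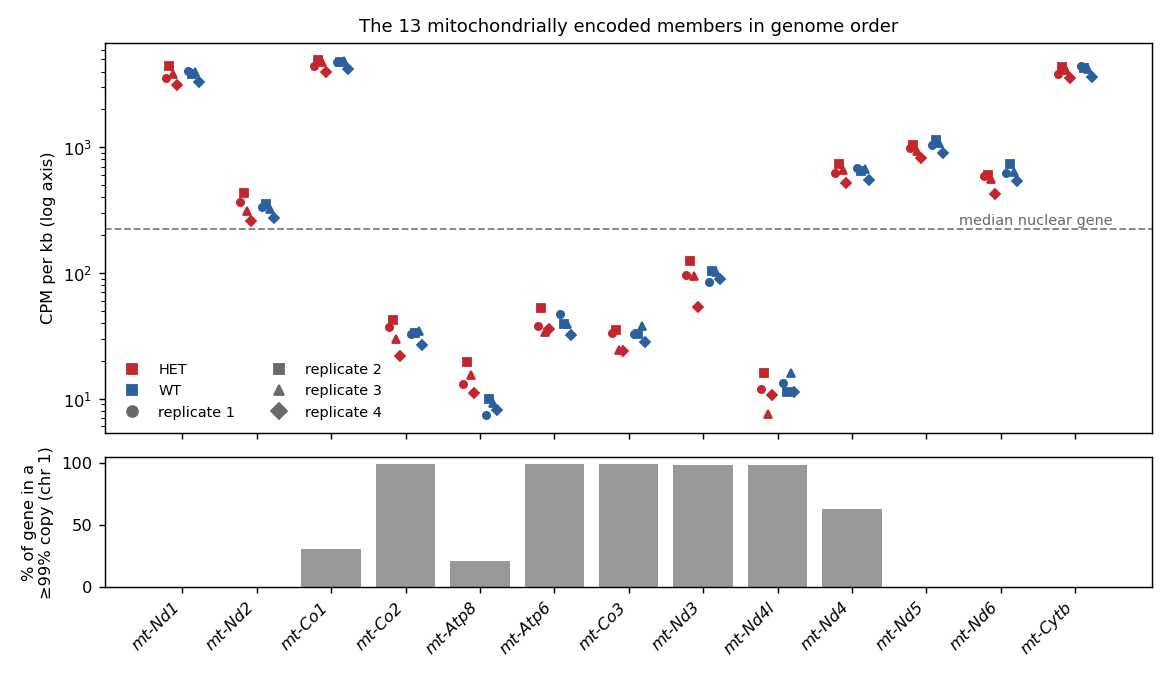
Level of each mitochondrial gene in CPM per kb of transcript (log axis, top), in the order of the genes on the mitochondrial genome, with 1 point per library and the dashed line at the median nuclear gene (222 CPM per kb); the lower panel gives the percentage of each gene found at 99% identity or more in an annotated gene on chromosome 1. The run from mt-Co2 to mt-Nd4l lies between 11.7 and 93.8 CPM per kb, while mt-Co1 just before it averages 4596.

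The genes with low counts are neighbours on the mitochondrial genome, and nearly identical sequence to that stretch is annotated in the nuclear genome. In the GENCODE M21 transcripts (GRCm38), 7 unprocessed pseudogenes on the minus strand at chr1:24611535-24616197 match mitochondrial genes. Gm28661 is identical to mt-Co2 over 681 bases, Gm10925 to mt-Atp6 over 678 bases, Gm28437 to mt-Co3 over 783 bases and Gm10222 to mt-Nd4l over 294 bases. Gm28438 differs from mt-Nd3 at 1 of 345 bases. These 5 genes, covered over 98.99% to 99.9% of their length, had 12.3 to 93.8 CPM per kb and made up 0.588% of the mitochondrial mRNA counts. The copies Gm29216 and Gm28439 cover only 31.3% of mt-Co1 and 63.6% of mt-Nd4, and these 2 genes kept higher counts. The genes mt-Nd1, mt-Nd2, mt-Nd5, mt-Nd6 and mt-Cytb had no match there, and yet mt-Nd2 was listed at 331 CPM per kb against 3768 for mt-Nd1. How reads that align equally well to both genomes were counted is not stated in the sources used here, and its part in these levels was not tested.

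The single mt-Nd3 difference lies in its start codon. The first 60 bases of both are shown because they carry the only base by which reads from the mitochondrial gene (chrM:9459-9518, plus strand) and the nuclear copy (chr1:24613060-24613119, minus strand) can be told apart; the capital marks T3C, counted from the first base of the gene.
mt-Nd3: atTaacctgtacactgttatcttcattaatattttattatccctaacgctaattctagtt
Gm28438: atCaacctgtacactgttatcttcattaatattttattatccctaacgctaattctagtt
Summed over the 8 libraries, mt-Nd3 received 2351 counts and Gm28438 108. Where a copy was identical over nearly the whole mitochondrial gene, the counts were divided more evenly. They were 1605 for mt-Co2 and 2484 for Gm28661, and 1935 for mt-Atp6 and 2395 for Gm10925. They were 1759 for mt-Co3 and 5020 for Gm28437, and 262 for mt-Nd4l and 225 for Gm10222. Gm28439, identical to mt-Nd4 over 876 bases but covering only 63.6% of that gene, had 298 counts against 62773. The cause of these divisions was not tested. The 7 copies together took 0.0190% ± 0.00251 of counts among HET and 0.0194% ± 0.00224 among WT libraries (SD, n = 4 each), a difference within the spread of the libraries. Adding them to the mitochondrial sum left the difference in the log2 ratio at -0.20.

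The short gene mt-Atp8 encodes a small membrane subunit of ATP synthase and overlaps mt-Atp6, which encodes the proton channel subunit, in another reading frame. The stretch annotated to both (chrM:7927-7969, 43 bases, plus strand) opens with the mt-Atp6 start codon, shown in capitals, and a read lying only in it cannot be given to either gene.
mt-Atp8 and mt-Atp6: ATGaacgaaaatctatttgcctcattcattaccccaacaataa
No annotated copy covers the rest of mt-Atp8, but the starts of mt-Co2 and mt-Atp6, between which it lies, are 914 bases apart in the mitochondrial genome and 914 bases apart in the chromosome 1 copies. It was the only mitochondrial gene with every HET library above every WT library, as were 1.99% of all genes tested, at 2.64, 4.0, 3.14 and 2.27 CPM against 1.52, 2.03, 1.89 and 1.67 CPM in WT. These levels rest on 15 to 33 counts a library, and the log2 fold change was 0.76 ± 0.60 (SE), with an adjusted p of 0.839 by edgeR's quasi-likelihood test. The genes mt-Nd4l and mt-Nd4 share 7 bases in the same way, and mt-Nd5 and mt-Nd6 share bases on opposite strands, which counts cannot separate unless strand was used.

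For the other mitochondrial genes the groups overlapped. The gene with the most negative estimate was mt-Nd6, the only one encoded on the opposite strand, with 305, 314, 293 and 221 CPM in HET and 322, 382, 331 and 279 CPM in WT. Its log2 fold change was -0.21 ± 0.13 (SE), and its adjusted p was 0.776 (edgeR). With mt-Nd6, mt-Nd5 (-0.13 ± 0.09) and mt-Cytb (-0.06 ± 0.07) were among the 5 genes of the whole set with the lowest p in that direction. For mt-Co1 the estimate was -0.04 ± 0.07 and for mt-Nd1 -0.03 ± 0.09, both smaller than their standard errors. Of the 13 genes, 9 had a negative and 4 (mt-Nd2, mt-Co2, mt-Atp6 and mt-Atp8) a positive log2 fold change, and the signs of mt-Nd1, mt-Nd2, mt-Nd3, mt-Nd4, mt-Co1, mt-Co2 and mt-Atp6 turned when single libraries were left out. The mitochondrial ribosomal RNAs, encoded beside these genes, took 1.27% ± 0.0977 of counts among HET and 1.38% ± 0.0458 among WT libraries (SD, n = 4 each). The 12S rRNA mt-Rnr1 had a log2 fold change of -0.09 ± 0.08 and the 16S rRNA mt-Rnr2 one of -0.11 ± 0.06, and neither passed the threshold.

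Nuclear subunit genes are separate transcription units on many chromosomes. Of the 88 nuclear rows, 78 are the subunit genes themselves and 10 are second copies or pseudogenes such as Cox5b-ps and Ndufa12-ps. The median tested nuclear gene lay at 222 CPM per kb, and mt-Co1 stood 20.5 times above it (17.9 to 26.1 times over the libraries), mt-Nd1 17.2 times and mt-Nd2 1.54 times. Lengths were those of the principal transcript of GENCODE M21. With the longest transcript instead, mt-Co1 stood 24.7 times above the median.

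Within complex I, the 37 nuclear genes ranged from 16.5 CPM per kb for Ndufb2 to 499 for Ndufa4, which is classed here by its symbol and is known as a subunit of complex IV. Some genes for the catalytic core of complex I lay in the lower part of that range: Ndufs1, which holds iron-sulfur clusters, had 31.5 CPM per kb and Ndufv1, the NADH-binding subunit, 67.4. Ndufs7 (253) and Ndufs8 (187), which also carry iron-sulfur clusters, were above the complex I median of 122. Accessory subunits lay on both sides of that median. Ndufa2 (317), Ndufa7 (310) and Ndufa6 (275) were above it, and Ndufa9 (68.2), Ndufa10 (60.1) and Ndufs4 (49.2) below. Of the Ndufb2 transcript, 50.3% is shared with the annotated genes Gm16272 and Gm42420, and its level is uncertain for that reason. Other genes named here also share bases with genes on the other strand. Among them, Uqcrc2 shares 26.6% of its transcript with Pdzd9 and Cox4i1 18.0% with Emc8. In complex III, Uqcrh (509), Uqcrq (438) and Uqcr10 (396), all small accessory subunits, exceeded the large core proteins Uqcrc1 (192) and Uqcrc2 (88.3) and the Rieske iron-sulfur protein Uqcrfs1 (123). In complex IV, Cox4i1 (970), Cox8a (766), Cox6a1 (603) and Cox6b1 (590) led, and in complex V Atp5e (651), the epsilon subunit of the central stalk. The catalytic beta subunit Atp5b had 562 CPM per kb and the alpha subunit Atp5a1 236, and their ranges over the libraries (498 to 709 and 212 to 270) did not overlap, although the proteins form the head in equal numbers.

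**Figure D3:**
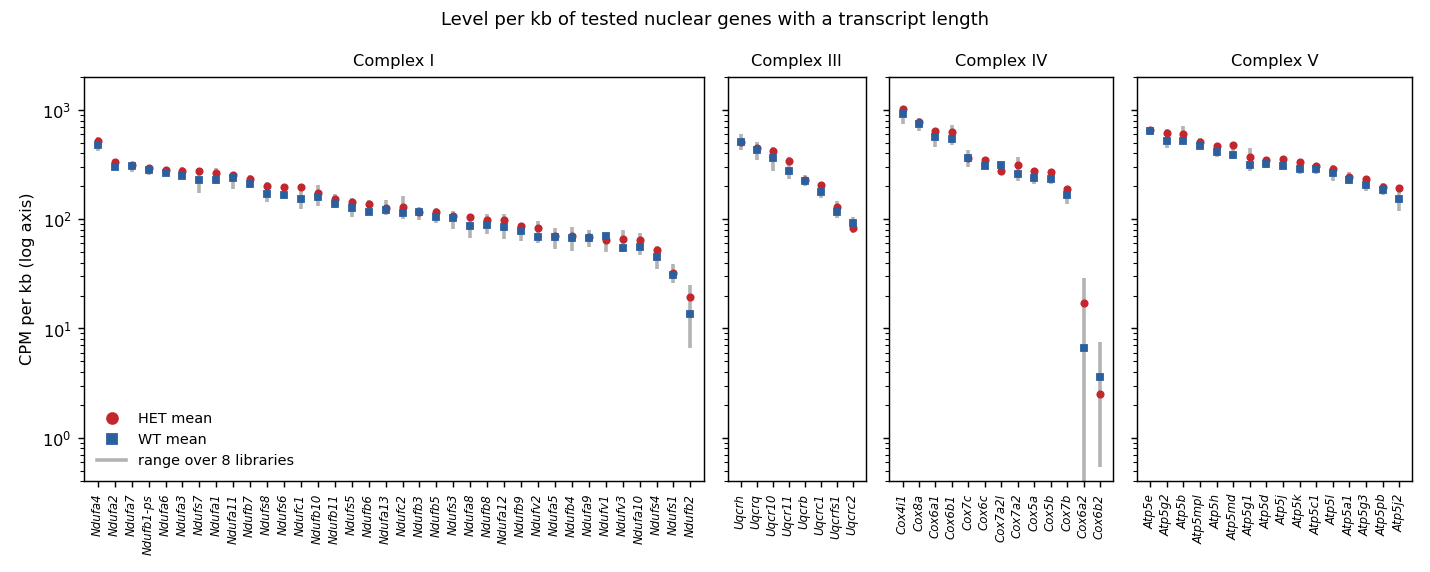
Level of the tested nuclear subunit genes with a transcript length (all but 1 of 74 are drawn), in CPM per kb (log axis), by complex and in falling order; red circles and blue squares are the HET and WT means of 4 libraries and grey lines the range over all 8. Medians rise from 122 CPM per kb in complex I to 269 in III, 293 in IV and 332 in V, and Cox6b2 has the lowest mean, 3.05 CPM per kb.

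Several complex IV subunits exist as isoforms from separate genes, and the B cells used the ubiquitous form of each. Cox4i1 had 718, 775, 785 and 770 CPM in HET and 743, 731, 555 and 706 CPM in WT, while Cox4i2, the isoform known from lung and from hypoxia, had 6 counts in HET replicate 1 and 0 in the 7 other libraries. Cox6a1, the liver-type isoform, held at least 95.8% of the per-kb level of its pair, and Cox6a2, the heart and muscle form, ranged from 0 CPM in HET replicate 3 and WT replicate 1 to 19.9 CPM in HET replicate 2 (log2 fold change 1.38, adjusted p = 0.892, edgeR). Cox6b2, known from testis, stayed at or under 4.15 CPM against 296 to 452 CPM for Cox6b1. Cox7a1, the heart and muscle form, had 0 counts in every HET library and 0 to 4 counts in the WT libraries. Ndufa4l2, a paralog of Ndufa4 known from hypoxia, had 1 count in each of 2 WT libraries and 0 elsewhere. None of Cox7a1, Cox4i2 and Ndufa4l2 passed the filter on low counts, and a count of 0 allows up to 3 counts, or 0.239 to 0.451 CPM. Of the Cox8 family the table lists Cox8a alone, at 350 to 467 CPM.

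**Figure D4:**
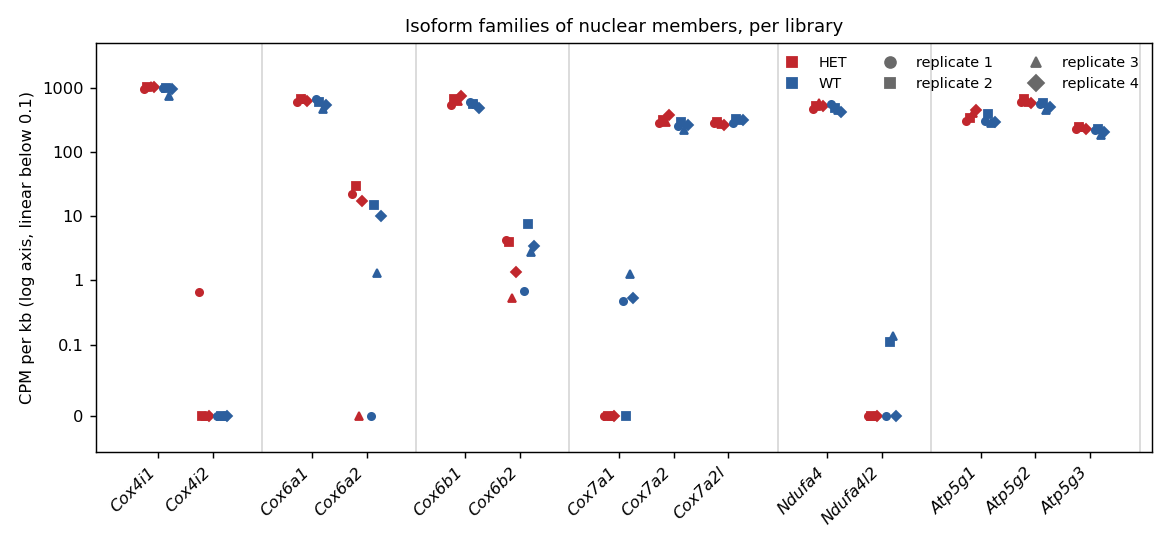
CPM per kb of transcript for genes of 6 isoform families in each library (log axis, linear below 0.1); red is HET, blue is WT, and symbols mark the replicate number. Cox4i1, Cox6a1, Cox6b1, Cox7a2 and Ndufa4 lie above 200 CPM per kb in all libraries, and Cox4i2, Cox7a1 and Ndufa4l2 at or near 0.

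In the COX7A family, Cox7a2 and Cox7a2l were expressed at similar levels. The first is the ubiquitous subunit of complex IV, and the second is known for joining complexes III and IV into supercomplexes. Whether Cox7a2l has that role in the cells and strain used here was not tested. Cox7a2 had 189, 205, 194 and 247 CPM in HET and 168, 193, 147 and 172 CPM in WT. Cox7a2l went the other way, with 300, 314, 291 and 277 CPM in HET and 307, 355, 342 and 340 CPM in WT, and had the lowest unadjusted p of any gene of the set with a negative estimate (0.0549, log2 fold change -0.18 ± 0.09, adjusted p = 0.706, edgeR). Cox7a2 made up 50.7%, 51.6%, 52.1% and 59.3% of the family's per-kb level in the HET libraries and 47.1%, 47.1%, 41.1% and 45.3% in the WT libraries. The groups did not overlap in this share, which was computed after both genes had been singled out by their p-values and is therefore given without a test.

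Atp5g1, Atp5g2 and Atp5g3 encode the same mature c subunit, the ring of the ATP synthase rotor, with different import sequences. By the principal transcripts, Atp5g2 gave 50.03% ± 3.64 (SD, n = 4) of the family's per-kb level in HET and 49.8% ± 1.27 (SD, n = 4) in WT, Atp5g1 30.6% ± 4.45 and 30.2% ± 2.0, and Atp5g3 19.4% ± 0.900 and 19.96% ± 0.770. The proportions did not differ beyond their spread. Atp5g1 has a transcript of 4715 bases beside that of 691 bases used here, and by the longest transcripts its share would be 7.22% to 10.6%, below Atp5g3. The whole Atp5g2 transcript used here, 441 bases, is also found in Gm10175 (475 counts over all libraries) and Gm10231 (42 counts) against 17733 counts for Atp5g2.

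HET was then compared with WT gene by gene. After filterByExpr, 90 of the 101 genes were tested among 12744, namely all 13 mitochondrial genes and 77 nuclear rows (75 subunit genes and the second copies Cox5b-ps and Ndufs5-ps). None passed an adjusted p of 0.05 in edgeR, where 3 of 12744 genes (0.0235%) did, and none did in DESeq2, where 95 genes (0.687%) did. At an unadjusted p under 0.05, 10 of the 77 nuclear genes were higher in HET, against 3.34% of all genes, and none was lower, against 3.88% of all genes. No mitochondrial gene reached that level. DESeq2 gave 14 genes of the set at an unadjusted p under 0.05, against 8.91% of all genes. A log2 fold change above 0 was found in 73 of 77 nuclear genes and 4 of 13 mitochondrial genes, against 49.9% of all genes. The median log2 fold change was 0.17 for the nuclear genes, -0.03 for the mitochondrial genes and -0.0014 for all genes tested. The estimates thus lay mostly on 1 side for the nuclear genes, but they were small, and the genes of a library are not independent of each other.

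**Figure D5:**
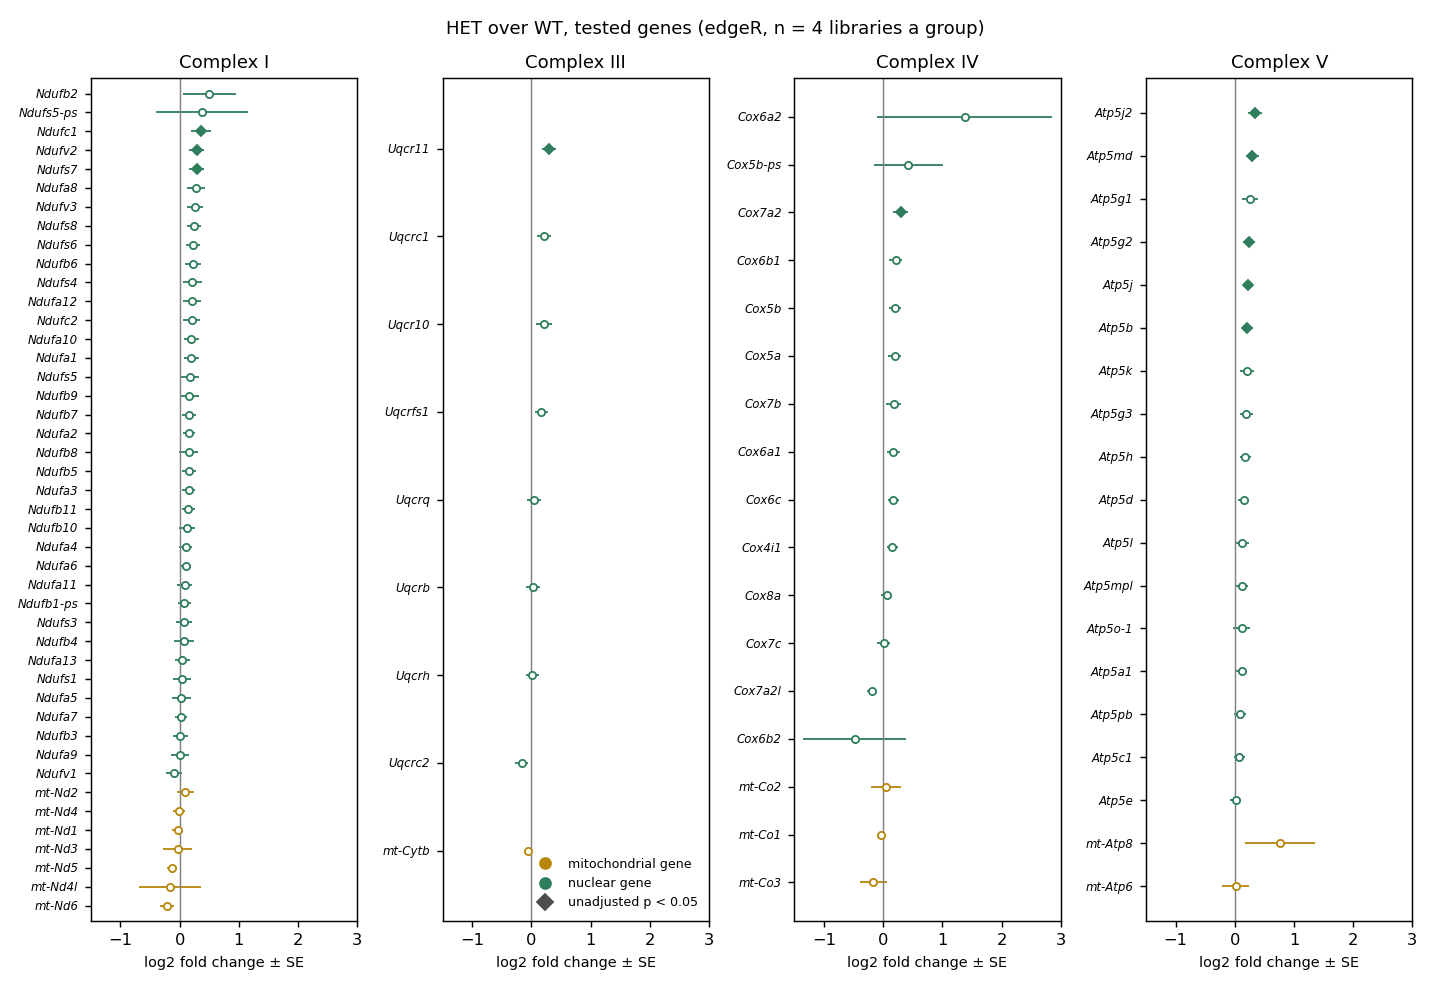
Log2 fold change of HET over WT with its standard error for the tested genes (all but 1 of 90 are drawn), by complex, with mitochondrial genes in gold and nuclear genes in green; filled diamonds have an unadjusted p under 0.05, and none passes after adjustment. In complex V all 17 nuclear genes lie to the right of 0, while mt-Nd6, mt-Nd5, mt-Co3, mt-Nd4l and mt-Cytb lie to the left.

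By complex, positive estimates were found in 37 of 38 tested nuclear genes of complex I (median 0.16), 7 of 8 of complex III (0.11), 12 of 14 of complex IV (0.18) and 17 of 17 of complex V (0.18). The exceptions were Ndufv1, Uqcrc2, Cox7a2l and the little-expressed Cox6b2. The excess of positive signs depended on the WT libraries in part. Without WT replicate 3, which had the lowest nuclear share, 62 of the 77 genes were positive and the median was 0.13. With both replicate 4 libraries left out, 69 of 77 were positive. Counts at an unadjusted p under 0.05 were less steady: 4 without HET replicate 2, 3 without HET replicate 3, 5 without WT replicate 3, 3 without WT replicate 4 and 1 when log2(TPM + 1) was tested with limma. The share of all genes at that level was 3.34% in the main fit and was not counted in these refits. A change in this set therefore cannot be told apart from a change over all genes.

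The 5 lowest p-values among the higher genes belonged to 3 ATP synthase genes and to 1 gene each of complexes III and IV. Atp5j2 encodes the f subunit of the membrane part of ATP synthase. It stood at 185, 188, 174 and 186 CPM in HET and at 153, 151, 114 and 163 CPM in WT, so all HET libraries were above all WT libraries. Its log2 fold change was 0.34 ± 0.12 (SE), with an unadjusted p of 0.0138 and an adjusted p of 0.576 (edgeR). Atp5md, a small subunit that holds ATP synthase dimers together, had 157, 182, 185 and 172 CPM in HET and 168, 133, 136 and 128 CPM in WT. Its groups overlapped through WT replicate 1, and its log2 fold change was 0.30 ± 0.12. Uqcr11, a small subunit of complex III, had 145, 141, 167 and 157 CPM in HET and 141, 131, 120 and 104 CPM in WT, again without overlap, though HET replicate 2 exceeded WT replicate 1 by less than 1 CPM. Atp5j, coupling factor 6 of the stalk, had 258, 274, 275 and 249 CPM in HET and 238, 232, 222 and 212 CPM in WT. Its log2 fold change was 0.22 ± 0.09, its groups did not overlap, and 19.1% of its transcript lies opposite Gabpa on the other strand. Cox7a2, given above, had a log2 fold change of 0.29 ± 0.12. The adjusted p-values of these 5 genes lay between 0.576 and 0.618, and over all alternative fits they ranged from 0.251 to 0.930.

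The 5 other genes with an unadjusted p under 0.05 were Atp5g2, Atp5b, Ndufv2, Ndufs7 and Ndufc1, with log2 fold changes of 0.24, 0.21, 0.29, 0.29 and 0.36. Atp5b, the nuclear gene of the set with the most counts, had 954, 1124, 1179 and 1358 CPM in HET and 960, 999, 1018 and 1016 CPM in WT. Its HET replicate 1 lay below all WT libraries and its HET replicate 4 well above them. In 8 genes all HET libraries exceeded all WT libraries: Atp5j2, Uqcr11, Atp5j, Atp5g3, Ndufa2, Ndufs6, Cox6c and mt-Atp8. That is 8 of 90 tested genes, against 1.99% of all genes, and no gene of the set had all HET libraries below all WT libraries, against 2.64% of all genes. Ndufa2, the nuclear complex I gene with the highest deposited TPM, had 190, 186, 203 and 187 CPM in HET and 170, 174, 163 and 180 CPM in WT, and its log2 fold change was 0.16 ± 0.10. Cox4i1, the corresponding nuclear gene of complex IV, had a log2 fold change of 0.16 ± 0.09 and Uqcrq, that of complex III, 0.04 ± 0.12, and both overlapped between the groups. Of the genes with negative estimates, Uqcrc2 had 156, 162, 141 and 172 CPM in HET and 199, 173, 159 and 178 CPM in WT (log2 fold change -0.16 ± 0.11).

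The second-copy rows carried few reads. Cox5b-ps, which matches 390 bases of Cox5b at 99.2% identity, had 244 counts over the 8 libraries (2.07 to 7.71 CPM), while Cox5b had 15486. Ndufb4c is identical to Ndufb4 over 390 bases and had 54 counts in all, against 4835. Ndufa12-ps, Cox7c-ps1, Atp5l-ps1, Atp5l2-ps and Atp5pb-ps had at most 9 counts in any library. Leaving out all 10 rows did not move the difference in nuclear share, 0.136 percentage points.

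Nuclear subunit genes are known targets of the factors NRF1, GABP (of the ETS family) and YY1, and their promoters were searched for these motifs. RefSeq promoter windows (GRCm38.p6, 250 bases before to 50 bases after the start of the gene) were at hand for 62 of the 88 nuclear genes, in 67 windows. The NRF1 motif CGCATGCG was found on either strand in 13.4% of these windows. It was found in 1.87% of all 32851 windows, which were not limited to expressed genes. The ETS motif CCGGAAG was found in 22.4% and 8.86%, and the YY1 motif AAGATGGCG in 10.4% and 1.40%. These letters do not overlap each other in the windows printed here. A match is a description of the sequence and not a site shown to be bound. The windows come from the reference genome, and the part of these motifs in the differences between HET and WT was not tested. The 9 genes with the NRF1 motif were Atp5g2, Atp5j, Atp5k, Atp5l, Cox6a1, Ndufa8, Ndufa11, Uqcr11 and Uqcrc1, and the 7 with the YY1 motif were Atp5j, Atp5j2, Ndufa9, Ndufc1, Ndufs4, Ndufs6 and Ndufs7. The window of Cox6a1 (chr5:115348909-115349208, minus strand) is shown for its NRF1 motif and, on the other strand, its ETS motif, in capitals in that order. That of Atp5j (chr16:84834927-84835226, minus strand) is shown for holding all 3 motifs, in the order NRF1, YY1 and ETS. It lies within the span of Gabpa on the plus strand (chr16:84834925-84863779), so its motifs cannot be assigned to Atp5j alone.
Cox6a1: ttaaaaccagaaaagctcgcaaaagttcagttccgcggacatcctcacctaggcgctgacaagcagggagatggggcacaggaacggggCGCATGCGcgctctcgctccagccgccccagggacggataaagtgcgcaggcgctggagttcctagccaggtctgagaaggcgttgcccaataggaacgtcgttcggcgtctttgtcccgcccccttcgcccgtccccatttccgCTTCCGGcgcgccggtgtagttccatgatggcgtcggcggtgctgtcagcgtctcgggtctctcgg
Atp5j: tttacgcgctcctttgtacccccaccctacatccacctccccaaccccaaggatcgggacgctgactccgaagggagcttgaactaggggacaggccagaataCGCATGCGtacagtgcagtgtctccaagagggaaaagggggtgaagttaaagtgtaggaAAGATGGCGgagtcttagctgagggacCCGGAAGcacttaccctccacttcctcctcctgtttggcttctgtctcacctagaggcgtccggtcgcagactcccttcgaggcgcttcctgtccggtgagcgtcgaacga
The isoform genes Cox7a2 (chr9:79759804-79760103, minus strand) and Cox7a1 (chr7:30183921-30184220, plus strand) are shown because one had 147 to 247 CPM and the other at most 4 counts. Neither window holds these motifs.
Cox7a2: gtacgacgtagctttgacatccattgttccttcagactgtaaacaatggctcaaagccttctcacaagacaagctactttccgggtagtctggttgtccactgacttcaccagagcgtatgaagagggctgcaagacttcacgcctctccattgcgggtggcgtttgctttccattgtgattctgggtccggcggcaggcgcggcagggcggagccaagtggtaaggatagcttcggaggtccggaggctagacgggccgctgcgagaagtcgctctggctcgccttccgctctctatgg
Cox7a1: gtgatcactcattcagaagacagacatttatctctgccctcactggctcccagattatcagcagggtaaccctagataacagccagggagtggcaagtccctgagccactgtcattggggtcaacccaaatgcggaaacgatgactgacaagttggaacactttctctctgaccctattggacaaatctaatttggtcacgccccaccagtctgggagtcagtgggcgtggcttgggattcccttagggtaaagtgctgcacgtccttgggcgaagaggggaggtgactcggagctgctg
The window of Cox7a2 holds 20 CpG dinucleotides in 300 bases and that of Cox7a1 holds 7, while those of Cox6a1 and Atp5j hold 32 and 18.

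The factors themselves were expressed and did not pass the threshold. Nrf1 averaged 53.5 CPM in HET and 56.5 CPM in WT, Gabpa 51.3 and 50.8 CPM, Yy1 36.4 and 37.6 CPM, and Gabpb1, the partner of Gabpa, 44.1 and 34.1 CPM (log2 fold change 0.37 ± 0.19, SE). Ppargc1a, a coactivator of mitochondrial biogenesis known from muscle and brown fat, was at or under 5.29 CPM in every library. Myc, which drives growth genes in activated B cells, had 218, 225, 229 and 287 CPM in HET and 229, 181, 119 and 234 CPM in WT, with a log2 fold change of 0.33 ± 0.18 and an adjusted p of 0.740 (edgeR). Of the 9 regulators listed, 6 had a positive estimate, against 49.9% of all genes.

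Among other genes of the pathway, nuclear-encoded complex II, which feeds electrons from succinate, showed no common direction: Sdhb (0.18 ± 0.12) and Sdhc (0.18 ± 0.15) had positive and Sdha (-0.12 ± 0.12) and Sdhd (-0.03 ± 0.12) negative log2 fold changes. Subunits outside the symbol rule and cytochrome c were positive in 5 of 5 tested genes, of which 3 had an unadjusted p under 0.05 (49.9% and 3.34% of all genes). These were Cycs, the mobile carrier cytochrome c, with 114, 165, 145 and 161 CPM in HET and 120, 140, 87.3 and 94.0 CPM in WT, Cyc1, the cytochrome c1 of complex III, and Ndufab1, the acyl carrier subunit of complex I. Of 78 tested genes for mitochondrial ribosomal proteins, which translate the 13 mitochondrial mRNAs, 62 had a positive estimate (median 0.18), and 9 were higher at an unadjusted p under 0.05 while none was lower. Of all genes tested, 49.9% had a positive estimate and 3.34% were higher and 3.88% lower at that level. None passed in edgeR, and Mrpl20 alone passed in DESeq2 (adjusted p = 0.0467), with 96.6, 114, 102 and 107 CPM in HET and 71.0, 85.9, 50.3 and 70.3 CPM in WT. Of 34 genes for mitochondrial transcription and translation, 22 were positive, and Polrmt, the mitochondrial RNA polymerase, Ssbp1, which binds single-stranded mitochondrial DNA, and the elongation factor Gfm1 had an unadjusted p under 0.05. Assembly factors were evenly split for complex I (10 positive of 17 tested) and complex IV (10 of 21), with 4 of 6 for complex III and 2 of 4 for complex V, and Ndufaf5 of complex I assembly was lower at an unadjusted p under 0.05.

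The markers of other cells were read beside these results. The 8 B cell markers all had a negative estimate, with a median log2 fold change of -0.21, and 5 were lower at an unadjusted p under 0.05 (0 passed after adjustment in edgeR and 1 in DESeq2). For these and the markers below, 49.9% of all genes had a positive estimate. At an unadjusted p under 0.05, 3.34% of all genes were higher and 3.88% lower in edgeR. After adjustment, 0.0235% of all genes passed in edgeR and 0.687% in DESeq2. All 8 tested T cell markers had a positive estimate (median 0.56), none at an unadjusted p under 0.05, and the 9 listed summed to 181 to 391.9 CPM in HET and 77.1 to 267 CPM in WT. All 4 tested myeloid markers had a negative estimate (median -1.35), 1 of them at an unadjusted p under 0.05, and the 8 listed summed to 10.8 to 25.5 CPM in HET and 20.4 to 421 CPM in WT, where WT replicate 2 was high through Lyz2 (398 CPM). The 4 plasmablast markers summed to 198 to 1910 CPM in HET and 165 to 391.6 CPM in WT, the highest being HET replicate 1 with 1570 CPM of Jchain, and the 5 red cell markers stayed at or under 9.29 CPM together. The T helper marker Cd4 had 0 counts in 5 of 8 libraries. Without HET replicate 1, the library with the most plasmablast marker RNA, 71 of 77 nuclear genes were positive, and without WT replicate 2, that with the most myeloid marker RNA, 73 were. The B cell marker sums did not overlap between the groups, so leaving out 1 library does not bear on them. The part of B cell, T cell, myeloid and plasmablast marker differences in the nuclear result was not tested.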

How the data were processed

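RNA of sorted B cells was sequenced in 4 HET and 4 WT libraries after an adapted SMART-Seq2 protocol on poly(A) RNA. According to the methods and processing notes, the authors aligned reads with HISAT2 2.2.1 to GRCm38 (mm10) and counted them per gene with HTSeq. How reads with several alignments were treated, whether strand was used and which annotation release was taken are not given in the sources used here. The deposited count table holds raw counts for 24259 symbols. The deposited TPM table (transcripts, scaled by length to a fixed sum) was used only for alternatives and to choose the highest gene of each complex.

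The counts were tested with edgeR 4.0.16 in R 4.3.3 (TMM scaling, filterByExpr, robust quasi-likelihood fit with group as the only term, Benjamini-Hochberg adjustment over all 12744 genes tested, threshold 0.05). CPM are counts per 1000000 of the TMM-scaled library size, and shares are of unscaled counts. The ± after a log2 fold change is a standard error and the ± after a share or level an SD. Transcript lengths, positions and overlaps came from GENCODE M21, in which 99 of the 101 symbols had a position, and near-identical copies from blastn 2.17.0. A copy counted as near-identical at 98% identity or more over at least 80% of a gene, and a match to a mitochondrial gene at 99% identity or more. Promoters were those of RefSeq.

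The named genes were all 13 mitochondrial genes, the highest nuclear gene of each complex by mean TPM, the 5 lowest p-values in each direction, the isoform families and genes with second copies. Others, such as Ndufv2, Ndufs7, Ndufc1, Mrpl20, Cycs, Polrmt, Ndufaf5, Myc and those named for their level per kb, were chosen after their values were seen. The genes and lists were chosen with earlier results of these data known. On simulated counts for 12744 genes with 4 libraries a group, the test recovered 40.6% of genes changed by 1 on the log2 scale and 80.2% of those changed by 2. Of all genes called there, 5.08% were false. Smaller changes, such as the nuclear median of 0.17, were not simulated, so recovery at that size is not known. Alternatives were DESeq2 1.42.0, limma 3.58.1 on log2(TPM + 1) and log2(TPM + 0.1), other scaling and filters, a replicate block, leaving out each library, and, added after seeing the data, both replicate 4 libraries left out, the chromosome 1 copies added, second copies left out and the longest transcripts. The values of 1 gene, which enters all sums and counts, are not reported here.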

Additional observations from a re-analysis of the deposited data

Results flagged for a closer look

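In 12 of the 120 groups of 4 libraries examined, 1 library stood apart by Dixon's criterion (its gap to the nearest library, divided by the range, above the 95% critical value for 4 values), where chance gives about 6.0. The groups share libraries and counts and are not independent. In WT, replicate 4 was apart in several related measures: the 13 mitochondrial genes took 1.67% of its counts against 1.98% to 2.02% in the other 3 libraries, those of complex I 0.611% against 0.739% to 0.758%, and that of complex III 0.412% against 0.490% to 0.502%. In the same library mt-Co1 stood at 6484 CPM against 7381 to 7486, and CT010467.1 took 7.84% of counts against 6.90% to 7.05%.

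In HET, replicate 1 was apart in the nuclear share, at 1.38% against 1.49% to 1.50% in the others, and lay within the WT range. Replicate 2 was apart in the share of the mitochondrial complex V genes, at 0.00398% against 0.00263% to 0.00280%. The remaining cases rest on at most 8 counts: Cox4i2 at 0.481 CPM in HET replicate 1 (0 in the others), Atp5pb-ps at 1.19 CPM in HET replicate 3, Ndufa12-ps at 1.06 CPM in HET replicate 4, Cox7c-ps1 at 0.608 CPM in WT replicate 2 and Atp5l-ps1 at 0.755 CPM in WT replicate 3.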

How the results depend on the processing

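No gene of the set passed the adjusted threshold in the main fit or in any of 19 alternatives, and 1 of the other pathway genes (Mrpl20) did in DESeq2. The count of nuclear genes with a positive estimate ranged from 62 to 79 (of 77 in the main fit, and more where the filter differed) and their median log2 fold change from 0.12 to 0.19, positive throughout. The count of nuclear genes at an unadjusted p under 0.05, 10 in the main fit, was 1 with limma on log2(TPM + 1), on log2(TPM + 0.1) and without a filter, 2 without both replicate 4 libraries (chosen after seeing the data), and 3 to 15 when single libraries were left out. Apart from DESeq2, the share of all genes at that level was not counted in the alternative fits. The mitochondrial median ranged from -0.12 to 0.05. The difference in mitochondrial share was -0.307 percentage points by TPM, and -0.148 to 0.020 when single libraries were left out, being positive without HET replicate 4. The difference in nuclear share ranged from 0.109 to 0.164 and that in log2 ratio from -0.25 to -0.12 when single libraries were left out. Over all genes, calls numbered 3 in edgeR and 95 in DESeq2. The cause of these changes was not tested.

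Signs of single genes turned as follows. With limma, mt-Co2 was at -0.0416 and at -0.0424 (pseudocount 0.1), and mt-Atp6 at -0.0458 and -0.0462, the first value of each with and without the filter. Without both replicate 4 libraries, mt-Atp6 was at -0.0229, mt-Nd3 at 0.128, mt-Nd4 at 0.0102 and Cox5b-ps at -0.107. When single libraries were left out, the log2 fold change ranged from -0.115 to 0.0478 for mt-Nd1, -0.0277 to 0.213 for mt-Nd2, -0.0835 to 0.0244 for mt-Co1, -0.0904 to 0.200 for mt-Co2, -0.139 to 0.106 for mt-Atp6, -0.207 to 0.156 for mt-Nd3, -0.0842 to 0.0802 for mt-Nd4, -0.0351 to 0.142 for Uqcrq, -0.845 to 0.171 for Cox6b2, -0.00202 to 0.128 for Cox8a and -0.0776 to 0.650 for Cox5b-ps.

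The replicate numbers did not pair the libraries: deviations of same-numbered libraries from their group means correlated at -0.051, 0.013, 0.003 and -0.026. With the replicate number as a block, 0 genes of the set were called, 73 of 77 nuclear genes were positive, 9 had an unadjusted p under 0.05, and the medians were 0.17 for nuclear and -0.04 for mitochondrial genes. For the shares and the log2 ratio, the mean of same-numbered differences equals the difference of group means. A block could therefore not change those differences. At depths of 6652386 counts or more, the levels of Cox4i2, Cox7a1, Ndufa4l2 and most second copies were too low for a comparison.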

Other observations

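The mitochondrial tRNA genes, which lie between the mRNA genes, had positive estimates in 7 of 8 tested genes, against 49.9% of all genes. Their median log2 fold change was 0.30, while both rRNA genes had negative estimates. The summed tRNA level was 177 to 215 CPM in HET and 162 to 199 CPM in WT. Of these tRNA genes, mt-Tt alone had an unadjusted p under 0.05 (log2 fold change 0.92, edgeR), against 3.34% of all genes higher at that level.

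The deposited TPM place the mitochondrial genes much higher above the nuclear genes than lengths of mature transcripts do. For 98.1% of 23530 genes, the length implied by count and TPM lay within 1% of the mean genomic span of the gene's transcripts, introns included. For the nuclear genes of the set this length was a median 5.47 times that of the mature transcript, for the mitochondrial genes, which have no introns, 1.0 times, and for all genes 3.61 times. By TPM the mitochondrial genes took 4.45% ± 0.589 among HET and 4.75% ± 0.431 among WT libraries (SD, n = 4 each), and the nuclear genes 1.11% ± 0.0757 and 1.03% ± 0.0423. The log2 ratio of the sums was 1.997 and 2.203, and its difference between HET and WT, -0.21, was close to that of the counts, -0.20.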
